A study of Mus musculus with 4 samples.

Results

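The transcript of the tumour suppressor p53 and of 29 further genes, its negative regulators Mdm2 and Mdm4 and known p53 targets, was followed in small-intestinal adenomas of mice. The 30 genes come from knowledge of the pathway, and they were chosen with earlier results of these data known. Each had a row in the deposited table of 29955 rows. In the spelling of the table they are the regulators TRP53, MDM2 and MDM4; the arrest genes CDKN1A, CCNG1, BTG2, PLK2, PLK3 and ZMAT3; the apoptosis genes BAX, BBC3, PMAIP1, FAS, TNFRSF10B, EDA2R, PERP, EI24, AEN, APAF1, PHLDA3 and TRP53INP1; the metabolic and stress genes SESN1, SESN2, DDIT4, FDXR, GDF15 and DRAM1; and the repair genes DDB2, XPC and RRM2B. The PAF KO group held 2 libraries, from adenomas of mice with the genotype PAF KO; APC Min/+. The WT group held 2 libraries, from adenomas of APC Min/+ mice with PAF intact, so both groups carried the Apc Min allele, which truncates 1 copy of the tumour suppressor Apc. From knowledge of the study, PAF means the factor that binds the replication clamp PCNA, and its gene is Pclaf. The labels give no age, sex or strain of the mice, and do not say which part of PAF was removed, in which cells, or whether several adenomas or animals were pooled. Nothing in the labels says that the libraries of a group came from separate animals. The PAF KO libraries differed in the transcripts of Xist and of the Y-linked gene Eif2s3y, so they came from different animals. For the WT libraries this is not known, and the spread between them may be technical.

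p53 is a transcription factor held at a low level by Mdm2, a ubiquitin ligase, and by its relative Mdm4, both of which bind it. DNA damage and other stress release p53 from them, and p53 then raises genes that stop the cell cycle, start apoptosis, adjust metabolism and help repair DNA. Much of this control acts on the p53 protein, which RNA levels do not show. In the intestinal epithelium p53 is known for the death of crypt cells after irradiation, and several of its targets also respond to other signals.

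In these adenomas 0 of the 29 genes that could be tested passed the test (limma), and 6 had an unadjusted p under 0.05, all lower in PAF KO (20.7%, where 9.76% of all tested rows were lower by this p). A set of 10 genes (34.5%, near the 30.2% of all tested rows) lay lower in both PAF KO libraries than in both WT libraries: the kinase gene Plk2, the stress genes Sesn2 and Ddit4, the death genes Bbc3, Pmaip1 and Phlda3, the secreted factor Gdf15, and Trp53, Cdkn1a and Xpc. Perp, Aen and Dram1 (10.3%, where 21.5% of all tested rows did so) lay higher in both. Dram1 reached the minimum of 1 FPKM for testing only through its PAF KO values. Other members, among them Cdkn1a, Ccng1, Plk3 and Trp53inp1, were at very different levels in the 2 PAF KO libraries. Trp53 and Mdm4 were each listed under 2 row names, which changed what their levels showed.

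Some facts about the libraries bear on every value. The PAF gene, row 2810417H13Rik, read 4.13 and 11.4 FPKM in PAF KO libraries 1 and 2, against 17.9 and 17.8 FPKM in WT libraries 1 and 2 (FPKM, fragments scaled by transcript length and by the mapped fragments of the library). Depth, estimated from the FPKM that a single fragment gives, was about 14800000 and 23400000 fragments in the PAF KO libraries and 12900000 and 16900000 in the WT libraries. PAF KO library 2 differed in sex from the other libraries: Xist stood at 46.4 FPKM there and at no more than 0.00861 FPKM elsewhere, and Eif2s3y was listed at 0 there and at 25.98 FPKM in PAF KO library 1. Both PAF KO libraries stood apart in their enterocyte markers. The 8 enterocyte markers summed to 12108 FPKM in PAF KO library 1 and 899 in PAF KO library 2, against 7729 and 8316 in the WT libraries. Apoa1 and Apoa4 carried most of the sum in PAF KO library 1 and in WT. Sis, Anpep and Fabp2 were lower in both PAF KO libraries (40.8% and 32.1% of the WT mean for Sis), while in PAF KO library 1 Fabp1 stood at 4728%, Lct at 1543% and Alpi at 495% of the WT mean. The 6 smooth muscle markers summed to 201 and 725 FPKM in the PAF KO libraries and to 189 and 189.9 in the WT libraries. The 8 general epithelial markers, such as Epcam and Cdh1, summed to 8335 and 8338 FPKM in the PAF KO libraries and to 7306 and 7197 in the WT libraries, and none of them was under 1 FPKM in all libraries. In bulk tissue, fewer cells of a type and less RNA per cell cannot be told apart.

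DNA just upstream of the members' start sites is shown because p53 acts through short DNA elements. The 250 bases before each start were taken from RefSeq, build GRCm38.p6, where 22 members had 29 such windows. They were searched for the p53 consensus decamer, the unit that a p53 response element carries as a pair, which is its own reverse complement and so covers both strands. Only exact matches were counted, and near matches were not searched. The exact decamer stood in 8 of 29 member windows (27.6%) and in 2341 of all 32851 windows (7.13%). Since known p53 targets were chosen as members, the higher share describes the choice of genes and is no result of these adenomas. The sequences are given 5′ to 3′ on the strand of the gene, with the decamer in capitals.
Cdkn1a, chr17:29090881-29090962, + strand: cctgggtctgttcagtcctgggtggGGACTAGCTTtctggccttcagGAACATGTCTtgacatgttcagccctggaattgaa
Ccng1, chr11:40755437-40755496, - strand: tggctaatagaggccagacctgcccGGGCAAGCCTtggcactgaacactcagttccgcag
Aen, chr7:78895912-78895971, + strand: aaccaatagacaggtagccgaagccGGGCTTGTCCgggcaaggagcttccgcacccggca
Mdm2, chr10:117710910-117710969, - strand: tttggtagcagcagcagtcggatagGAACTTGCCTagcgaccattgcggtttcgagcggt
Trp53, chr11:69580259-69580318, + strand: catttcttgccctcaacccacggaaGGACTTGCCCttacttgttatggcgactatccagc

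In these windows the Cdkn1a sequence, upstream of 1 of its 2 RefSeq starts, held 2 exact decamers separated by 12 bases. This was the only exact pair with a spacer of up to 13 bases among the member windows (21 of all windows held such a pair). The bases directly after the second Cdkn1a decamer are a near match, which the search did not count. The other exact matches were in Bax, Ei24 and Sesn1. Of the 8 members that lay lower in both PAF KO libraries and had a window, Trp53 and Cdkn1a held an exact match. Plk2, Bbc3, Phlda3, Sesn2, Ddit4 and Gdf15 held no exact match within these bases. The other members with a match, Mdm2, Ccng1, Bax, Ei24, Sesn1 and Aen, had log2 differences between -0.30 and 0.33. A match is a stretch of letters and was not tested for binding.

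Across the 30 members, 29 averaged 1 FPKM or more in the 4 libraries and entered a limma fit on log2(FPKM + 1), with Benjamini-Hochberg adjustment over the 13716 rows that reached this minimum. Eda2r, a death receptor of the tumour necrosis factor family on the X chromosome, did not pass: it read 0.515 and 1.62 FPKM in the PAF KO libraries and 0.558 and 0.706 FPKM in the WT libraries. At an adjusted p under 0.05, 0 of the 29 members were called, while 0.0729% of all tested rows were, all of them lower. The lowest adjusted p of a member was 0.273. At an unadjusted p under 0.05, 6 members were lower (20.7%) and 0 higher, where 9.76% of all tested rows were lower and 3.44% higher. Both PAF KO values lay below both WT values in 10 members (34.5%) and above them in 3 (10.3%), where 30.2% and 21.5% of all tested rows did so. The share of members without overlap on the lower side was thus near that of all rows. On the higher side, Dram1 passed the minimum only through its PAF KO values. The median log2 fold change of the members, PAF KO over WT, was -0.12, against 0.0035 over all tested rows, and 20 of 29 lay below 0. The median was -0.20 with PAF KO library 1 alone and 0.05 with PAF KO library 2 alone. Over all tested rows these medians were -0.11 and 0.09, so the members' median changed sign between the libraries as that of all rows did. With 2 libraries a group, an exact 2-sided permutation test of a single gene cannot give a p under 0.333.

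**Figure D1:**
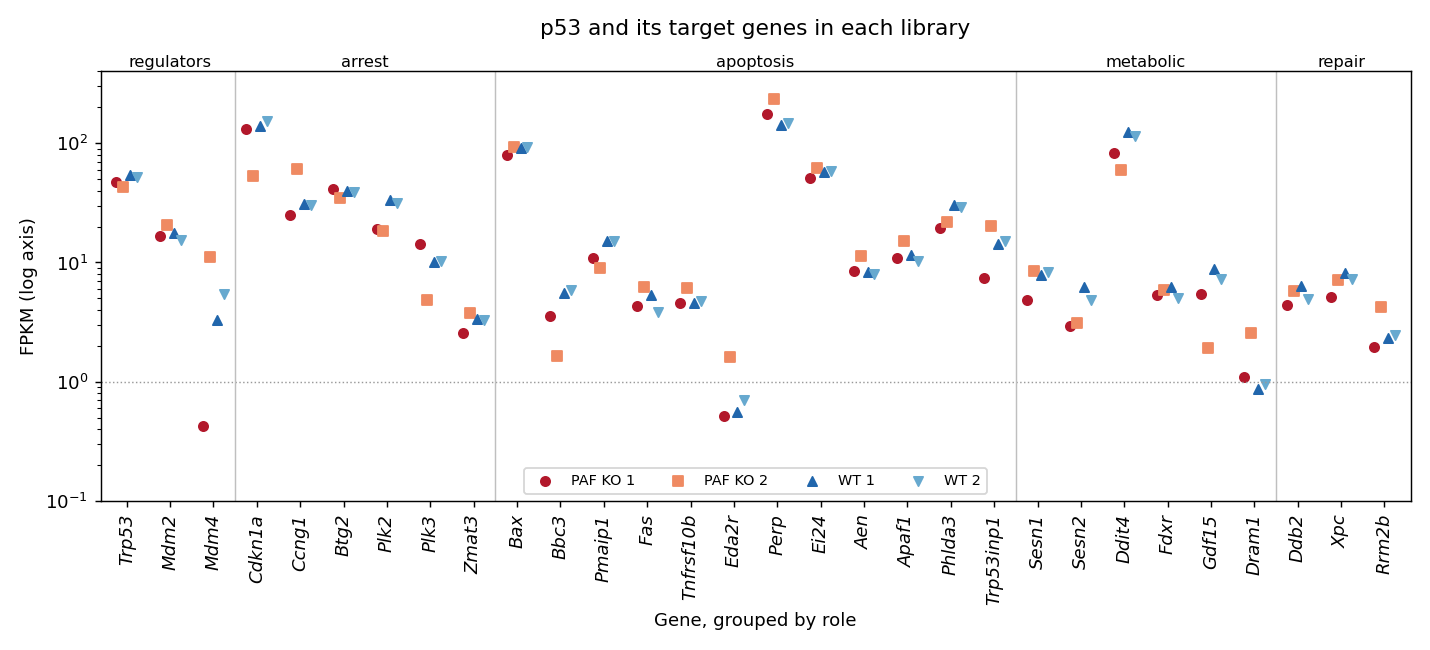
FPKM (log axis) of the 30 genes in each of the 4 libraries, grouped by role; circles and squares are PAF KO libraries 1 and 2, triangles are WT libraries 1 and 2, and the dotted line marks 1 FPKM. Levels range from 0.425 FPKM for Mdm4 in PAF KO library 1 to 236 FPKM for Perp in PAF KO library 2, and the WT symbols lie close together for nearly every gene.

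Trp53, which encodes p53, was a well expressed gene and read slightly lower in both PAF KO libraries. Row Trp53 stood at 47.6 and 42.7 FPKM in the PAF KO libraries and at 54.2 and 52.1 FPKM in the WT libraries. The groups did not overlap, and the log2 fold change was -0.23 (SE 0.162, 2 libraries a group; adjusted p = 0.554 by limma). A second row of the table, named P53, is a synonym of Trp53 and of no other RefSeq gene. That row read 13.5 FPKM in PAF KO library 1 and was listed at 0 in PAF KO library 2, against 25.3 and 27.8 FPKM in the WT libraries. Added together, the rows gave 61.1 and 42.7 FPKM in the PAF KO libraries and 79.5 and 79.97 FPKM in the WT libraries. The sum was 76.6% and 53.5% of the WT mean in the PAF KO libraries, where row Trp53 alone was 89.5% and 80.2%, and its log2 fold change was -0.63 (limma adjusted p = 0.386). This sum was formed after the values had been seen. The table gives no positions, so which transcript each row stands for is not known, and an exact 0 can be a failed estimate.

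Mdm2, itself a p53 target and the main ligase that marks p53 for degradation, read 16.7 and 20.5 FPKM in the PAF KO libraries and 17.8 and 15.5 FPKM in the WT libraries. These ranges overlapped, with a log2 fold change of 0.15 (SE 0.191, 2 libraries a group; adjusted p = 0.703 by limma). Mdm4, which binds p53 and blocks its activity without degrading it, was listed at 0.425 FPKM in PAF KO library 1 and 11.02 in PAF KO library 2, against 3.27 and 5.44 FPKM in the WT libraries. This was the widest split of any member between the PAF KO libraries, on each side of the WT values, and the log2 fold change of -0.34 had an SE of 1.15 (2 libraries a group; adjusted p = 0.889 by limma). Its synonym row Mdmx was highest in PAF KO library 1, where row Mdm4 was lowest. It read 4.74 and 1.89 FPKM in the PAF KO libraries and 2.03 and 0.0354 FPKM in the WT libraries. The 2 rows together came to 5.17 FPKM in PAF KO library 1, close to 5.30 and 5.48 FPKM in the WT libraries, and to 12.9 FPKM in PAF KO library 2. The low Mdm4 value of PAF KO library 1 thus stood beside a high Mdmx value, while PAF KO library 2 was high in the sum, at 239.5% of the WT mean. The log2 fold change of the sum was 0.54 (limma adjusted p = 0.594), with the sign opposite to that of row Mdm4.

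**Figure D2:**
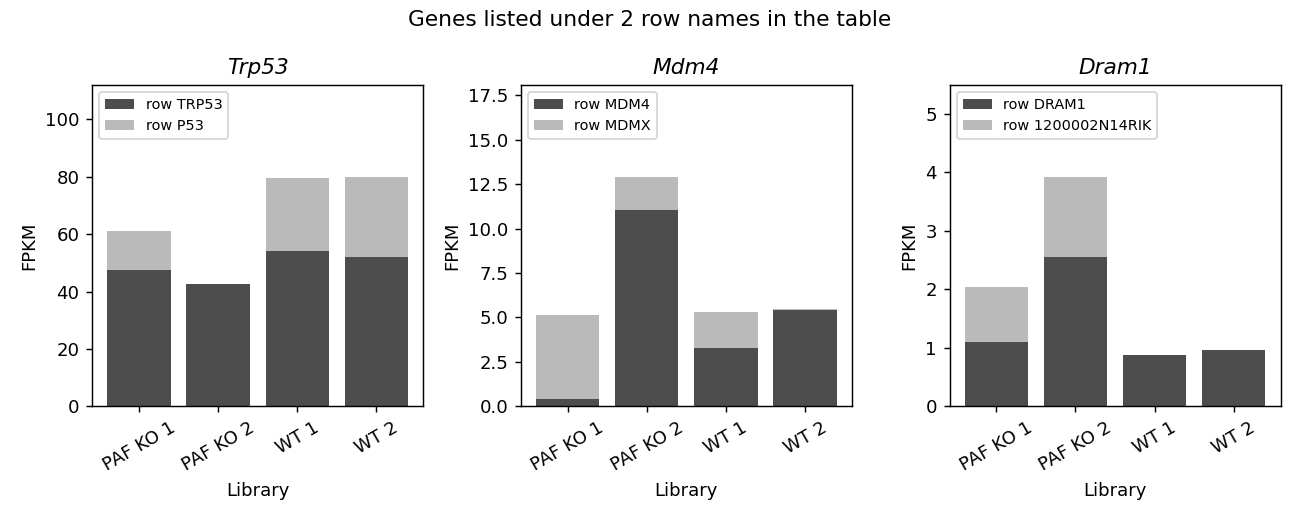
FPKM of Trp53, Mdm4 and Dram1 in each library, as stacked bars of the row under the current symbol (dark) and the row under a synonym (light). The Trp53 bars are lower in both PAF KO libraries (61.1 and 42.7 FPKM, against 79.5 and 79.97 in WT), and the summed Mdm4 bar of PAF KO library 1 (5.17 FPKM) is level with the WT bars.

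The 6 arrest genes held the member of smallest p and some of the widest differences between the PAF KO libraries. Plk2, a polo-like kinase that acts at the start of the cell cycle and in centriole duplication, read 19.2 and 18.5 FPKM in the PAF KO libraries and 33.6 and 31.6 FPKM in the WT libraries. Both PAF KO libraries stood at a similar level, 58.9% and 56.6% of the WT mean, well below the WT values. Its log2 fold change was -0.76 (SE 0.151, 2 libraries a group; adjusted p = 0.273 by limma, unadjusted p = 0.00840). Cdkn1a, the Cdk inhibitor that is the best known arrest target of p53, read 132 FPKM in PAF KO library 1 and 53 in PAF KO library 2, against 139 and 154 FPKM in the WT libraries. PAF KO library 1 was just under the WT values and PAF KO library 2 at 36.3% of their mean. The log2 fold change of -0.79 (SE 0.502, 2 libraries a group; adjusted p = 0.527 by limma) was -0.14 without PAF KO library 2 and -1.45 without PAF KO library 1. In PAF KO library 2, where Cdkn1a was low, the summed enterocyte markers were also low (899 FPKM, against 7729 and 8316 in WT), and the part of these cells in the Cdkn1a level was not tested.

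Cyclin G1 (Ccng1), a p53 target that recruits a phosphatase to Mdm2, differed in the other direction. It read 25.01 FPKM in PAF KO library 1 and 60.4 in PAF KO library 2, against 31.0 and 30.6 FPKM in the WT libraries. The PAF KO libraries thus lay on each side of the WT values, at 81.2% and 196% of their mean. Plk3, a stress-responsive polo-like kinase, read 14.3 and 4.86 FPKM in the PAF KO libraries and 10.2 and 10.3 FPKM in the WT libraries, again on each side. Btg2, an antiproliferative factor that promotes mRNA deadenylation, read 41.1 and 34.6 FPKM in the PAF KO libraries and 39.4 and 38.8 FPKM in the WT libraries. Zmat3, a zinc finger RNA-binding protein, read 2.56 and 3.79 FPKM in the PAF KO libraries and 3.39 and 3.31 FPKM in the WT libraries. Neither gene was separated between the groups. Of the 6 arrest genes, 0 were called and 1, Plk2, was lower at an unadjusted p under 0.05 (9.76% of all tested rows were). The median log2 fold change of the arrest genes was -0.16. Plk2, Plk3 and Btg2 are also induced by growth factors, as immediate early genes are. The 8 immediate early markers summed to 539 and 243 FPKM in the PAF KO libraries and to 604 and 569 in the WT libraries. Of them 2, Jun and Junb, lay lower and 0 higher in both PAF KO libraries, where 30.2% and 21.5% of all tested rows did so. Fos and Egr1 overlapped between the groups. They stood at 149% and 132% of the WT mean in PAF KO library 1 and at 62.5% and 29.6% in PAF KO library 2.

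The 12 apoptosis genes pointed in several directions: 3 of the 11 tested lay lower and 2 higher in both PAF KO libraries, and the others overlapped, counts to be read against the 30.2% and 21.5% of all tested rows. Bbc3 (Puma) and Pmaip1 (Noxa) encode BH3-only proteins, which neutralise the survival proteins of the Bcl2 family. Bbc3 read 3.55 and 1.65 FPKM in the PAF KO libraries and 5.55 and 5.91 FPKM in the WT libraries. Both PAF KO values were below both WT values, at 61.95% and 28.8% of the WT mean, and the log2 fold change was -0.95 (SE 0.331, 2 libraries a group; adjusted p = 0.374 by limma). Pmaip1 read 10.95 and 8.94 FPKM in the PAF KO libraries and 15.1 and 15.2 FPKM in the WT libraries. It was lower in both PAF KO libraries, with a log2 fold change of -0.57 (SE 0.176, 2 libraries a group; adjusted p = 0.342 by limma), the smallest p of the apoptosis genes. Phlda3, which blocks Akt at the membrane, read 19.6 and 21.8 FPKM in the PAF KO libraries and 30.5 and 29.1 FPKM in the WT libraries, also without overlap. These 3 genes had an unadjusted p under 0.05 (0.0475 for Bbc3, 0.0348 for Pmaip1 and 0.0353 for Phlda3) and did not pass over all rows tested. By this unadjusted p, 9.76% of all tested rows were lower.

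Bax, the pore-forming effector that opens the outer mitochondrial membrane, read 79.9 and 93.0 FPKM in the PAF KO libraries and 90.7 and 92.5 FPKM in the WT libraries. Its PAF KO values lay on each side of the WT range. Apaf1, which assembles the apoptosome, read 10.9 and 15.1 FPKM in the PAF KO libraries and 11.5 and 10.3 FPKM in the WT libraries. Ei24, an endoplasmic reticulum protein, read 50.9 and 61.7 FPKM in the PAF KO libraries and 57.8 and 58.9 FPKM in the WT libraries. The groups overlapped for Bax, Apaf1 and Ei24. Perp, a membrane protein of desmosomes needed for cell adhesion in stratified epithelia, was the most abundant member per length in the PAF KO libraries (in WT library 2 Cdkn1a was higher). It read 174 and 236 FPKM in the PAF KO libraries and 140.5 and 148 FPKM in the WT libraries, higher in both PAF KO libraries, with a log2 fold change of 0.49 (limma adjusted p = 0.449). Aen, an exonuclease of apoptotic DNA breakdown, read 8.41 and 11.3 FPKM in the PAF KO libraries and 8.26 and 7.95 FPKM in the WT libraries, and its separation in PAF KO library 1 was slight.

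The death receptor genes showed no separation. Fas read 4.31 and 6.26 FPKM in the PAF KO libraries and 5.34 and 3.82 FPKM in the WT libraries. Tnfrsf10b, the mouse TRAIL receptor, read 4.56 and 6.07 FPKM in the PAF KO libraries and 4.57 and 4.75 FPKM in the WT libraries. For both genes PAF KO library 1 was within or beside the WT values and PAF KO library 2 above them. Trp53inp1, a nuclear and autophagy protein that promotes p53 activity, read 7.35 FPKM in PAF KO library 1 and 20.2 in PAF KO library 2, against 14.3 and 15.2 FPKM in the WT libraries. It was at 49.8% and 137% of the WT mean, and its log2 fold change was -0.92 with PAF KO library 1 alone and 0.43 with PAF KO library 2 alone. Over the 11 tested apoptosis genes the median log2 fold change was -0.06. It was -0.19 in PAF KO library 1 and 0.32 in PAF KO library 2, against medians of -0.11 and 0.09 over all tested rows in these libraries.

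**Figure D3:**
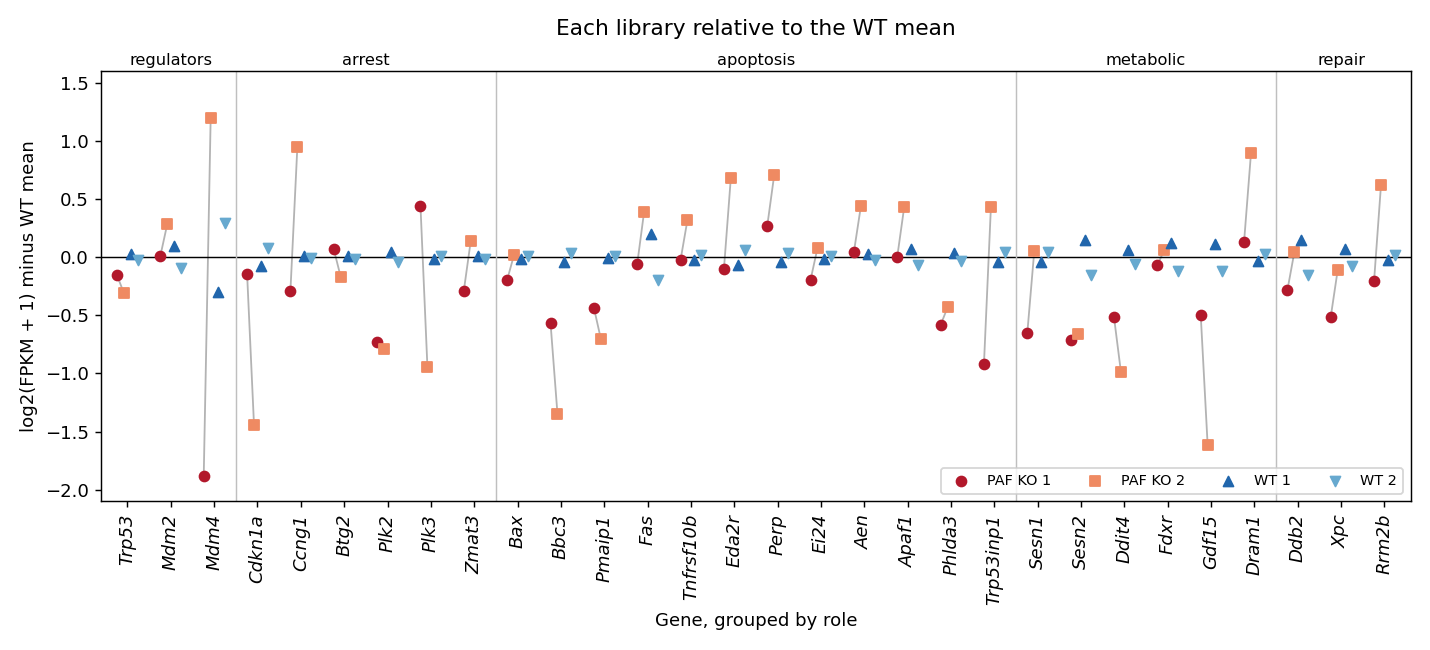
log2(FPKM + 1) of each gene in each library minus the WT mean, grouped by role; grey lines join PAF KO library 1 (circles) to PAF KO library 2 (squares), and triangles are the WT libraries. Plk2 and Sesn2 have nearly equal negative values in both PAF KO libraries, while Mdm4, Ccng1, Plk3 and Trp53inp1 have 1 PAF KO library on each side of 0.

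The 6 metabolic and stress genes had the lowest median log2 fold change of the role groups over both PAF KO libraries, -0.49, and in PAF KO library 1, -0.505. In PAF KO library 2 it was -0.30, and that of the arrest genes was lower, -0.48. Sesn2 and Ddit4 both restrain mTORC1, the kinase complex that drives growth, and are induced by starvation, hypoxia and other stress as well as by p53. Sesn2 read 2.95 and 3.10 FPKM in the PAF KO libraries and 6.18 and 4.84 FPKM in the WT libraries. The PAF KO values were alike and below both WT values, at 53.5% and 56.2% of their mean, with a log2 fold change of -0.69 (SE 0.2005, 2 libraries a group; adjusted p = 0.331 by limma). Ddit4 (Redd1) read 83.2 and 59.7 FPKM in the PAF KO libraries and 125 and 114 FPKM in the WT libraries. It was lower in both PAF KO libraries, with a log2 fold change of -0.75 (unadjusted p = 0.0357, limma adjusted p = 0.344). Gdf15, a secreted stress factor of the TGF-beta family, read 5.40 and 1.94 FPKM in the PAF KO libraries and 8.76 and 7.30 FPKM in the WT libraries. Its log2 fold change of -1.05 (SE 0.445, 2 libraries a group; adjusted p = 0.418 by limma) was the lowest of all members, and PAF KO library 2 stood at 24.2% of the WT mean.

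Sesn1, the relative of Sesn2, did not share its pattern. It read 4.81 FPKM in PAF KO library 1 and 8.46 in PAF KO library 2, against 7.86 and 8.39 FPKM in the WT libraries, so that PAF KO library 1 alone was low. Fdxr, a mitochondrial reductase that hands electrons to ferredoxins, read 5.32 and 5.91 FPKM in the PAF KO libraries and 6.21 and 5.08 FPKM in the WT libraries, with a log2 fold change of -0.0034. Dram1, a lysosomal membrane protein of autophagy, read 1.09 and 2.56 FPKM in the PAF KO libraries and 0.873 and 0.956 FPKM in the WT libraries. It passed the minimum of 1 FPKM only through its PAF KO values, and its log2 fold change was 0.51 (limma adjusted p = 0.550). Its synonym row 1200002N14Rik read 0.951 and 1.37 FPKM in the PAF KO libraries and was at or near 0 in both WT libraries. The 2 rows of Dram1 summed to 2.05 and 3.93 FPKM in the PAF KO libraries and to 0.873 and 0.956 FPKM in the WT libraries, a log2 fold change of 1.02 (limma adjusted p = 0.342). In RefSeq 10 members overlap another gene, among them Dram1 (Washc3), Plk3 (Tctex1d4), Apaf1 (Ikbip) and Ddb2 (Acp2) with a protein-coding one, and the sources used here do not say whether the libraries kept strand.

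The 3 repair genes were expressed at low levels. Xpc and Ddb2 recognise ultraviolet damage for nucleotide excision repair, and Rrm2b is the p53-induced subunit of ribonucleotide reductase, which supplies deoxynucleotides outside S phase. Xpc read 5.11 and 7.07 FPKM in the PAF KO libraries and 8.17 and 7.29 FPKM in the WT libraries. Its PAF KO library 2 value was only slightly under the lower WT value, and the log2 fold change was -0.31 (SE 0.219, 2 libraries a group; adjusted p = 0.556 by limma). Ddb2 read 4.44 and 5.82 FPKM in the PAF KO libraries and 6.34 and 4.97 FPKM in the WT libraries, with overlap. Rrm2b read 1.96 and 4.24 FPKM in the PAF KO libraries and 2.35 and 2.45 FPKM in the WT libraries, again with PAF KO library 1 below and PAF KO library 2 above.

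The PAF KO libraries differed from each other in many of these genes. The 2 PAF KO libraries differed by more than 1.5-fold in 10 of the 29 tested members (34.5%), and the 2 WT libraries in 1, Mdm4 (3.45%). Over all tested rows these shares were 49.1% in the PAF KO group and 5.44% in the WT group, so the members' share in the PAF KO group was below that of all rows. PAF KO library 2 read above PAF KO library 1 in 20 of the 29 members and in 61.8% of all tested rows. With PAF KO library 1 alone standing for the knockout, 8 members were called lower and 1 higher, where 20.7% of all rows were called. With PAF KO library 2 alone, 9 were called lower and 8 higher, where 61.2% of all rows were called. In these fits the lone PAF KO library is assumed to vary like the WT libraries. Plk2, Bbc3, Pmaip1, Phlda3 and Ddit4 were called lower in both fits and 0 members higher in both, where 1372 of all 13716 tested rows were called lower in both and 431 higher in both. Both fits use the same WT libraries. Without either WT library, 0 members were called (limma), and 0 had an unadjusted p under 0.05.

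**Figure D4:**
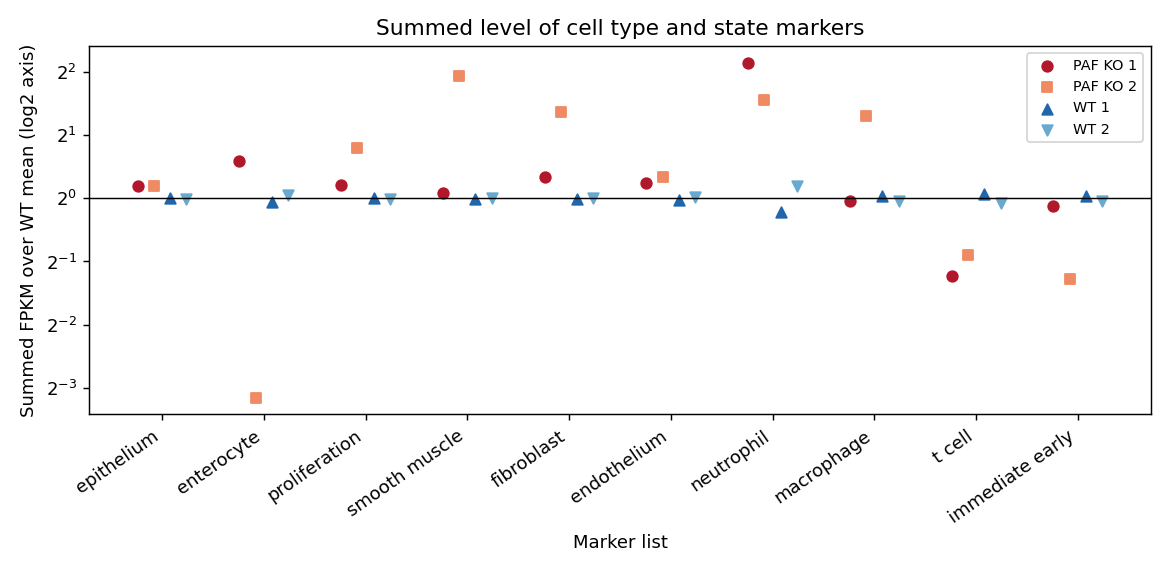
Summed FPKM of each marker list in each library divided by the WT mean (log2 axis), for cell types that the adenomas could hold and for proliferation and immediate early genes. PAF KO library 2 is far below the others for enterocyte markers (899 FPKM) and above them for smooth muscle (725 FPKM), while the epithelial sums of both PAF KO libraries (8335 and 8338 FPKM) are similar.

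Marker levels of several cell types differed between the libraries. Counts of markers higher or lower in both PAF KO libraries are to be read against the 21.5% and 30.2% of all tested rows. The proliferation markers summed to 252 and 378 FPKM in the PAF KO libraries and to 219 and 217 in the WT libraries, with 6 of 8 higher and 1 lower in both PAF KO libraries. All 6 fibroblast markers were higher in both PAF KO libraries, and their sums were 332.5 and 685 FPKM in PAF KO, against 262 and 266 in WT. Neutrophil markers summed to 152 and 100 FPKM in the PAF KO libraries and to 29.4 and 39.0 in the WT libraries over 5 of 6 listed genes with a row, of which Cxcr2 stayed under 1 FPKM throughout. S100a8 and S100a9 made up most of the PAF KO sums. Of the neutrophil markers 4 were higher in both PAF KO libraries and 1, Mmp9, lower (10.3 and 7.56 FPKM, against 13.7 and 14.3 in WT). T cell markers summed to 16.1 and 20.3 FPKM in PAF KO and to 39.4 and 36.0 in WT, with Gzmb making up most of each sum (13.1 and 13.1 FPKM in PAF KO, 31.2 and 27.8 in WT). Cd3e, Cd8a and Gzmb were lower in both PAF KO libraries. Cd3d and Cd3g stood at 72.4% and 35.1% of the WT mean in PAF KO library 1. In PAF KO library 2 they stood at 232% and 107%. Cd3d did not reach the minimum for testing. The constant region gene Trac was under 0.01 FPKM in every library under the synonym that the table lists. Macrophage markers summed to 79.1 and 202 FPKM in PAF KO and to 83.4 and 79.3 in WT, with Cd163 under 1 FPKM throughout. Lyz2 made up most of each sum (56.1 and 157 FPKM in PAF KO, 51.5 and 44.5 in WT). Cd68 was lower in both PAF KO libraries (12.1 and 10.6 FPKM, against 16.6 and 19.1 in WT). Endothelial markers summed to 66.0 and 71.0 FPKM in PAF KO and to 54.8 and 57.1 in WT, with 4 higher and 1, Cdh5, lower in both PAF KO libraries. The part of these cells in the levels of the p53 genes was not tested.

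Genes that act upstream of p53 were split in direction. Of 20 listed, 18 were tested, 0 were called, and the median log2 fold change was 0.09. At an unadjusted p under 0.05 (limma), 2 were lower and 0 higher, where 9.76% and 3.44% of all tested rows were. In both PAF KO libraries 6 lay lower and 3 higher, where 30.2% and 21.5% of all tested rows did so. The 3 higher, Atr, Chek1 and Chek2, encode damage kinases, and their log2 differences were 0.40, 0.44 and 0.42. None passed limma, at an adjusted p of 0.515, 0.537 and 0.455. In PAF KO library 1 alone their log2 differences were 0.15, 0.12 and 0.23. Atm and Prkdc, damage kinase genes of the same list, overlapped between the groups. Their log2 differences were -0.13 and -0.15 in PAF KO library 1, and 0.73 and 0.58 in PAF KO library 2. These kinase genes were picked out after the values were seen. Hipk2, a kinase that phosphorylates p53 after severe damage, read 8.93 and 5.98 FPKM in the PAF KO libraries and 13.3 and 14.2 FPKM in the WT libraries. Daxx, a chromatin and p53 cofactor, read 10.9 and 10.3 FPKM in the PAF KO libraries and 15.97 and 15.2 FPKM in the WT libraries. The acetyltransferase gene Crebbp read 5.86 and 6.24 FPKM in the PAF KO libraries and 8.04 and 8.79 FPKM in the WT libraries. All 3 lay lower in both PAF KO libraries, and their log2 fold changes were -0.83 for Hipk2, -0.51 for Daxx and -0.42 for Crebbp, at an adjusted p of 0.328, 0.333 and 0.396 by limma. Cdkn2a, whose Arf product inhibits Mdm2, read 1.06 and 5.09 FPKM in the PAF KO libraries and 1.93 and 1.38 FPKM in the WT libraries. The relatives Trp63 and Trp73 did not reach the minimum of 1 FPKM.

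A further list of 20 p53 targets held genes separated in each direction. Of 17 tested, 0 were called (limma), and the median log2 fold change was 0.15. At an unadjusted p under 0.05, 1 was higher and 0 lower, where 3.44% and 9.76% of all tested rows were. In both PAF KO libraries 7 lay higher and 4 lower, where 21.5% and 30.2% of all tested rows did so. The difference from the members was not tested. Sfn (stratifin), an epithelial arrest protein, read 129 and 129.6 FPKM in the PAF KO libraries and 71.8 and 70.3 FPKM in the WT libraries. Its replicates were close, and its log2 fold change of 0.85 (SE 0.158, 2 libraries a group; adjusted p = 0.257 by limma, unadjusted p = 0.00650) had the opposite sign to that of Cdkn1a. Ak1, an adenylate kinase, read 2.16 and 3.42 FPKM in the PAF KO libraries and 1.37 and 1.11 FPKM in the WT libraries. Pidd1 (row Lrdd), a death domain scaffold, read 4.34 and 3.01 FPKM in the PAF KO libraries and 5.54 and 5.34 FPKM in the WT libraries.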

How the data were processed

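The authors deposited FPKM values, 1 column for each library. The submitters' processing notes name TopHat2, Cuffdiff and mm9, and give no versions or settings. No count test was run on these scaled values. Where a symbol was repeated (84 rows), the row of higher mean was kept. The 13716 rows averaging 1 FPKM or more entered limma 3.58.1 (R 4.3.3) on log2(FPKM + 1) with a variance trend, adjusted by Benjamini-Hochberg and called at 0.05. This scale understates folds of low genes. The steps were tested on simulated data with changes larger than that of any member. This does not show whether changes of the members' size could be called. Depth was read from FPKM times length of genes with a single transcript of 1000 bases or more (GENCODE M21), and it limits the precision of low genes. Members and lists were chosen with earlier results of these data known. Full statistics cover Trp53, Mdm2, Mdm4, Cdkn1a and, per role, the genes of smallest p or largest change; the pathway lists give 3 genes each, by p. Cdkn2a, Atr, Atm, Prkdc, Chek1, Chek2, Bak1, Bcl2a1a, Mcl1, Bcl2, Bik and the synonym rows were picked after values were seen. Symbols and upstream sequences came from RefSeq GRCm38.p6, and Pmaip1, Zmat3, Tnfrsf10b, Perp, Trp53inp1, Ddb2, Xpc and Rrm2b had no window. Alternatives were pseudocounts of 0.1 and 0.01, no filter, a filter at 5 FPKM, no trend, median centring, quantile normalization, summed repeated symbols, a replicate block, each library left out and, added later, summed synonym rows.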

Additional observations from a re-analysis of the deposited data

How the results depend on the processing

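Of the 29 tested members, 0 were called under any alternative that kept all 4 libraries; leaving out 1 library gave 0 to 17 called members and 0 to 8397 called rows, and the 10 called rows became 4 with no filter. The count of 6 members lower at an unadjusted p under 0.05 was 4 with no filter, with a filter at 5 FPKM and with quantile normalization, 3 with median centring, 2 with the replicate block, and 0 to 14 with 1 library left out; the cause was not tested. The count of 0 members higher was 1 with synonym rows summed (Dram1, an alternative chosen after seeing the data) and 0 to 9 with 1 library left out.

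The titles share the numbers 1 and 2, but nothing says that they pair libraries. Deviations of same-numbered libraries correlated at r = -0.115 across 13716 rows, which are not independent, and the replicate block gave 13 called rows and 0 called members.

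With 1 library left out, the median log2 fold change ran from -0.21 to 0.29 for the regulators, from -0.48 to -0.16 for the arrest genes, from -0.19 to 0.32 for the apoptosis genes, from -0.54 to -0.30 for the metabolic genes, from -0.28 to 0.042 for the repair genes and from -0.20 to 0.052 for all members. The median of the apoptosis genes was 0.046 with no filter and 0.0001 with median centring, against -0.057. With synonym rows summed, that of the regulators was 0.15 and the value of Mdm4 0.54, of opposite sign to the unsummed ones. Median centring turned the values of Btg2 (0.0069), Ei24 (5.8e-05) and Fdxr (0.054) positive, and quantile normalization that of Fdxr (0.062). Leaving out 1 library turned the sign of 14 members: Mdm4 (-1.88 to 1.20), Ccng1 (-0.29 to 0.95), Btg2 (-0.17 to 0.069), Plk3 (-0.94 to 0.44), Zmat3 (-0.29 to 0.14), Bax (-0.20 to 0.022), Fas (-0.060 to 0.39), Tnfrsf10b (-0.024 to 0.32), Ei24 (-0.19 to 0.079), Trp53inp1 (-0.92 to 0.43), Sesn1 (-0.65 to 0.052), Fdxr (-0.13 to 0.12), Ddb2 (-0.28 to 0.042) and Rrm2b (-0.20 to 0.62). In every alternative that tested them, 10 members stayed below 0 (Trp53, Cdkn1a, Plk2, Bbc3, Pmaip1, Phlda3, Sesn2, Ddit4, Gdf15 and Xpc) and 5 above it (Mdm2, Perp, Aen, Apaf1 and Dram1). The 10 are the members whose PAF KO values both lay below both WT values, so leaving out 1 library could not turn their sign. The same holds for Perp, Aen and Dram1 on the higher side. Dram1 passed the minimum of 1 FPKM only through its PAF KO values. Genes near 1 FPKM, such as Eda2r and Dram1, rest on few fragments.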

Other observations

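The Bcl2 family decides whether the mitochondrial membrane opens. The 10 of its genes listed here leave out Bax, Bid, Bbc3 and Pmaip1, which stood in other lists. Of these 10 genes, 9 were tested, 0 were called (limma), and the median log2 fold change was -0.57 over both PAF KO libraries. It was -0.18 in PAF KO library 1 and -0.42 in PAF KO library 2. At an unadjusted p under 0.05, 3 were lower and 0 higher, where 9.76% and 3.44% of all tested rows were. In both PAF KO libraries 4 lay lower and 1, Bcl2a1a, higher, where 30.2% and 21.5% of all tested rows did so. Bcl2a1a read 0.501 and 4.43 FPKM in PAF KO and 0.349 and 0.350 in WT, and was tested only through PAF KO library 2. Mcl1 and Bcl2 had log2 fold changes of 0.19 and 0.04. Bmf, a BH3-only gene, read 4.56 and 4.23 FPKM in the PAF KO libraries and 12.0 and 11.1 FPKM in the WT libraries, a log2 fold change of -1.22 (SE 0.162; limma adjusted p = 0.235). Bcl2l11 (Bim), another BH3-only gene, read 6.97 and 6.98 FPKM in the PAF KO libraries and 15.1 and 14.3 FPKM in the WT libraries (log2 fold change -0.97; limma adjusted p = 0.241). The survival gene Bcl2l1 read 47.4 and 31.4 FPKM in the PAF KO libraries and 73.9 and 73.8 FPKM in the WT libraries (log2 fold change -0.92; limma adjusted p = 0.327). Bak1, a pore-forming effector beside Bax, read 184 and 60.05 FPKM in the PAF KO libraries and 163 and 166 FPKM in the WT libraries, so it was low in PAF KO library 2 alone.

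Among 8 BH3-only genes, a grouping made after the values were seen, 7 were tested. Bbc3, Pmaip1, Bcl2l11, Bmf and Bik lay lower in both PAF KO libraries, which is 5 of 7, and 0 lay higher in both. Of all tested rows 30.2% and 21.5% did so, but with the genes grouped after their values were seen, this comparison is no test. Bik read 2.11 and 2.84 FPKM in the PAF KO libraries and 4.01 and 4.29 FPKM in the WT libraries. Bad and Bid overlapped between the groups, and Hrk did not reach 1 FPKM.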
